A study of Mus musculus with 6 samples.

Results

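The 9 genes described here take part in the handling of calcium, bicarbonate, protons or chloride by ameloblasts, the epithelial cells that lay down and mineralize tooth enamel. They were chosen by name as genes known in enamel mineralization, at a time when earlier results of these data were known. All 9 (Stim1, Stim2, Orai1, Atp2b1, Slc24a4, Slc4a4, Slc4a2, Car2 and Cftr) have a row among the 24959 genes of the deposited count table. RNA was sequenced from mouse samples labelled as dental epithelial cells at postnatal day 0. There were 3 libraries of a conditional knockout of Pkm (Pkm cKO, labelled with the genotype PKM knockout) and 3 control libraries (labelled with the genotype WT). Pkm encodes the M-type pyruvate kinases of glycolysis. The Cre driver, the deleted exon, and whether each sample came from 1 animal or from pooled tissue were not stated in the labels at hand. The comparison addresses how the loss of Pkm alters expression of these genes while teeth form.

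Enamel grows as crystals of calcium phosphate, and their growth releases acid. Ameloblasts therefore have to carry calcium to the enamel side and to buffer the protons set free there. In the current view calcium enters through the store-operated channel formed by ORAI proteins, which STIM proteins open when the endoplasmic reticulum runs low on calcium, and leaves through pumps and sodium-calcium exchangers. Bicarbonate is made by carbonic anhydrases and moved by transporters of the SLC4 family, while CFTR carries chloride. Several of these genes are known mainly from the later maturation stage of enamel, whereas teeth of newborn mice hold mostly earlier ameloblasts. Mutations of STIM1, ORAI1 and SLC24A4 cause enamel defects in people.

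Start-site sequence was looked at for the members because 3 of them, Atp2b1, Slc4a4 and Cftr, had the lowest fold changes among the members. RefSeq windows of the mouse build GRCm38.p6 were at hand for 8 of the 9 genes, with 11 start sites in all. The 250 bases before each start were searched on both strands for the GC box GGGCGG, the CCAAT box and the E-box CACGTG. No site of 1 motif overlapped a site of another in these windows, but GC boxes could overlap each other and were counted each. The GC box was in 7 of the 11 windows, against 32.7% of all 32851 windows. The CCAAT box was in 4, against 33.8%, and the E-box in 1, that of Slc24a4, against 6.02%. These matches are descriptions of letters and not binding sites. One window of each of the 3 genes is shown, chosen as clear of annotated exons, with the GC boxes and CCAAT boxes of either strand in capitals. All lie on the plus strand, at chr5:89027716-89027965 for Slc4a4, chr10:98914902-98915151 for Atp2b1 and chr6:18170437-18170686 for Cftr. The Slc4a4 window belongs to its internal start site, and the gene counts do not separate transcripts of its different starts.
Slc4a4: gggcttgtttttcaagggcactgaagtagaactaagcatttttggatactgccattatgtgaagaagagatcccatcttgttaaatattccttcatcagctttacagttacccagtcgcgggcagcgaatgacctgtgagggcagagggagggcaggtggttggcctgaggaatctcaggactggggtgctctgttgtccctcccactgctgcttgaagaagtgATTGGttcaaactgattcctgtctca
Atp2b1: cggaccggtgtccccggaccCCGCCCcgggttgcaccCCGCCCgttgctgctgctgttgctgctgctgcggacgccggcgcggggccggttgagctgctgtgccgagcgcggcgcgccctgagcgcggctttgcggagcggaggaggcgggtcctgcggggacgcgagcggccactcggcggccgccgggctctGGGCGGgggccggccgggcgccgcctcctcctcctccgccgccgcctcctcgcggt
Cftr: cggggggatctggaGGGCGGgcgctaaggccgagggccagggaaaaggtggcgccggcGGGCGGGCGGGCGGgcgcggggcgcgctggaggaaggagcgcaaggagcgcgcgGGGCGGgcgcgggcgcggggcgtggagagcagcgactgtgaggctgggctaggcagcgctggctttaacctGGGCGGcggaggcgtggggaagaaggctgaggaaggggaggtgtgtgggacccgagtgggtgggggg
The Slc4a4 window shown held 1 CCAAT box and no GC box, the Atp2b1 window 3 GC boxes and the Cftr window 6, 3 of them in an overlapping run. The other Slc4a4 window, which overlaps an annotated exon and is not shown, held 1 GC box and no CCAAT box. The other Atp2b1 window, left out for the same reason, held 4 GC boxes.

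Total counts were 30588350 to 39085792 in Pkm cKO libraries and 38130829 to 39415700 in controls, and 15930 genes had enough reads to be tested. Pkm itself, which checks the labels, stood at 309, 395 and 350 CPM (counts per 1000000 reads, on library sizes scaled by edgeR) in Pkm cKO replicates 1 to 3, against 1281, 1185 and 1049 CPM in control replicates 1 to 3 (log2 fold change -1.74, edgeR adjusted p 0.0109). Marker lists moved with the groups. Summed over 8 general epithelial markers, the libraries held 10324 to 11932 CPM in the Pkm cKO group and 14260 to 16443 CPM in controls, lower by 28.5% in the means, with 7 of the 8 below 0 in log2 fold change and none called. The sum of 5 secretory ameloblast markers was 5368, 545 and 201 CPM in Pkm cKO replicates 1 to 3, against 24928, 21767 and 10312 CPM in control replicates 1 to 3, with 5 of 5 below 0 and none called (edgeR adjusted p 0.201 to 0.405). The sum of 8 osteoclast markers was 1483, 403 and 1233 CPM in the Pkm cKO libraries, against 355, 144 and 203 CPM in controls, with 8 of 8 above 0 and none called. Pkm cKO replicate 3 stood apart with 3073 CPM of 8 skeletal muscle markers, against 77.4 and 22.5 CPM in Pkm cKO replicates 1 and 2 and 5.85 to 7.08 CPM in controls, where Myh3 was at 0 in at least 1 library. The sum of 10 mesenchymal markers overlapped between the groups, with 19125 to 40798 CPM in Pkm cKO libraries and 20074 to 31715 CPM in controls, and exceeded the epithelial sum in every library. Col1a1 and Col1a2 made up most of that sum. Of the 10 markers 8 were above 0, with a median log2 fold change of 0.57 and none called. In 6 (Col3a1, Vim, Msx1, Barx1, Lum and Postn) every Pkm cKO library lay above the controls, against 11.2% of all tested genes. The sum of 8 macrophage markers was 112 to 187 CPM in Pkm cKO libraries and 58.5 to 63.4 CPM in controls, with 8 of 8 above 0. Of these, 7 did not overlap, against 11.2% of all tested genes. The 1 called was C1qc (edgeR adjusted p 0.0487), against 0.552% of all tested genes. In such bulk samples, fewer cells of a type and less RNA per cell cannot be told apart.

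Of the 9 genes, 8 passed the filter on low counts and were tested, and none of these (0 of 8) reached an adjusted p under 0.05 (Benjamini-Hochberg over all tested genes, from edgeR's quasi-likelihood model), against 0.552% of all tested genes. At an unadjusted p under 0.05, 4 of the 8 were below controls (Slc4a4, Stim2, Atp2b1 and Slc4a2), against 7.9% of all tested genes. In 3 of the 8 (Slc4a4, Slc4a2 and Stim2) every Pkm cKO library lay below every control library, against 12.2% of all tested genes. None of the 8 had all Pkm cKO libraries above the controls, against 11.2% of all tested genes. The median log2 fold change (Pkm cKO over control) of the 8 was -0.41, against 0.01 over all tested genes.

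**Figure D1:**
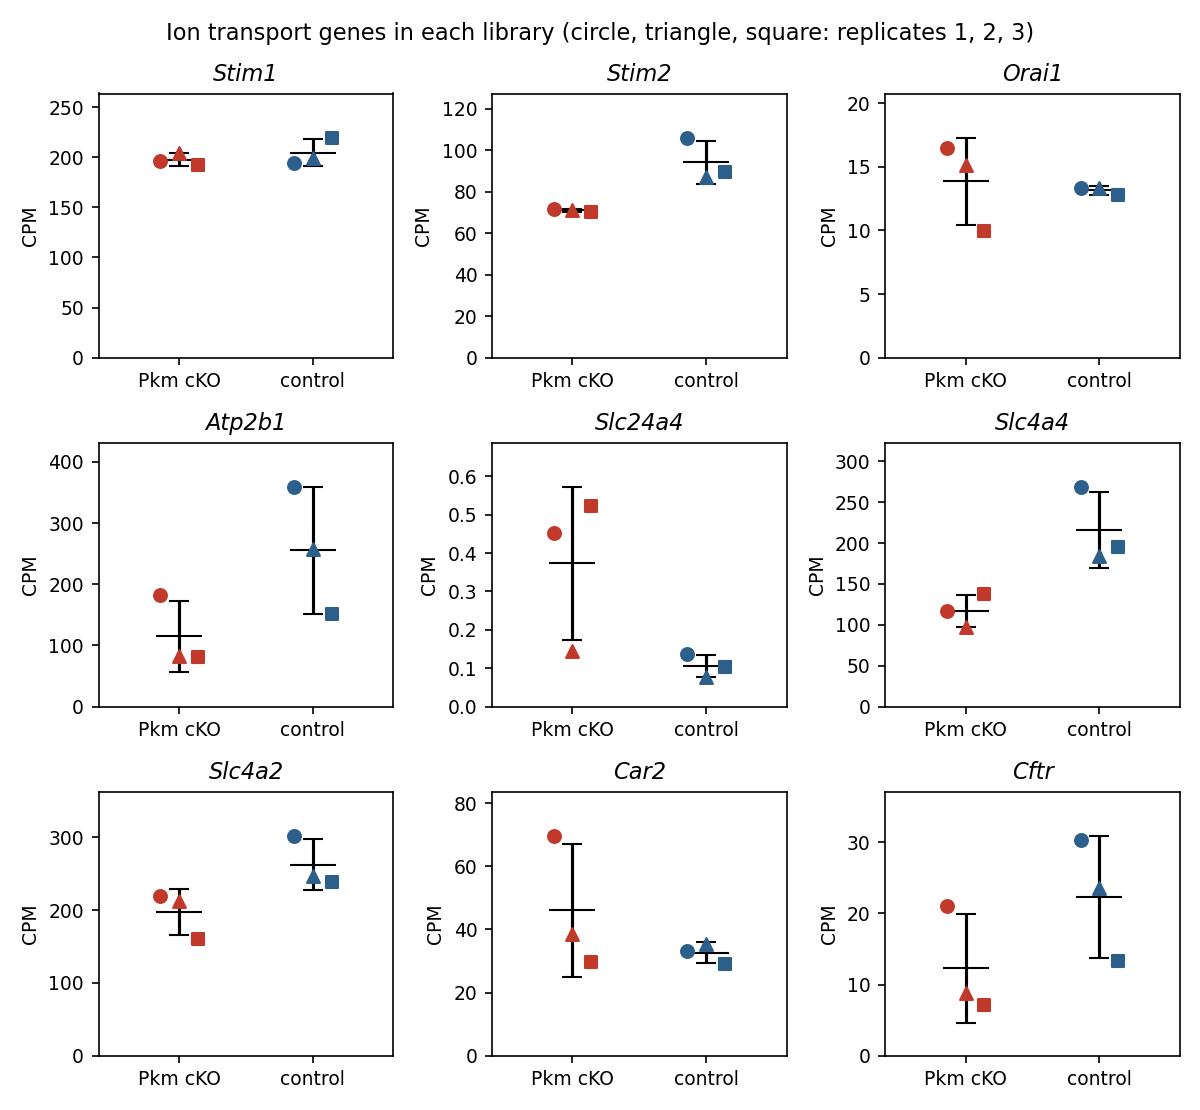
CPM of each of the 9 genes in the 3 Pkm cKO libraries (red, left) and the 3 control libraries (blue, right), with the mean and SD in black and a marker shape for each replicate number. The groups do not overlap for Slc4a4, Slc4a2 and Stim2, lower in Pkm cKO libraries, nor for Slc24a4, higher but under 1 CPM.

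Among the genes of calcium entry, Stim1, the calcium sensor of the endoplasmic reticulum, was nearly level across libraries. It stood at 196, 204 and 192 CPM in Pkm cKO replicates 1 to 3, against 194, 199 and 220 CPM in control replicates 1 to 3. The groups overlapped, and the log2 fold change was -0.05 (SE 0.134, 95% interval -0.35 to 0.25, edgeR adjusted p 0.880). Skeletal muscle is known to use Stim1, and the part of the muscle RNA of Pkm cKO replicate 3 in its value was not tested.

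Stim2, a related sensor that responds to smaller losses of stored calcium, had 71.5, 71.2 and 70.2 CPM in Pkm cKO libraries, against 106, 86.9 and 89.6 CPM in controls. The 3 Pkm cKO values lay within 2 CPM of each other and all under the lowest control. Its mean was 71.0 ± 0.658 CPM in Pkm cKO libraries and 94.2 ± 10.4 CPM in controls (SD, n = 3 each), lower by 24.7%. The log2 fold change of -0.41 (SE 0.143, 95% interval -0.73 to -0.09) did not pass after adjustment (edgeR adjusted p 0.188). The epithelial marker sum was lower by 28.5%, and its part in this difference was not tested.

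Orai1, the pore of the store-operated channel, was lower than both sensors in CPM per kilobase of exon. It stood at 16.5, 15.1 and 9.98 CPM in Pkm cKO libraries, against 13.4, 13.4 and 12.8 CPM in controls. The groups overlapped, with both the highest and the lowest value in Pkm cKO libraries (log2 fold change 0.07, SE 0.235, 95% interval -0.45 to 0.60, edgeR adjusted p 0.902). Without Pkm cKO replicate 3, the library with the most skeletal muscle RNA, it was 0.27 (adjusted p 0.490), and without Pkm cKO replicate 1 it was -0.073 (adjusted p 0.902). Its exons overlap Gm2479 on the opposite strand in the GRCm38 annotation, and reads of such partners cannot be told apart when the strand setting is not given, which holds for Cftr and Gm15592 too.

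Of the exporters of calcium, Atp2b1, the plasma membrane calcium pump PMCA1, had the lowest fold change of the members. It stood at 182, 82.0 and 81.5 CPM in Pkm cKO replicates 1 to 3, against 359, 257 and 151 CPM in control replicates 1 to 3. Pkm cKO replicate 1 lay above control replicate 3, so the groups overlapped. The mean was 115 ± 58.0 CPM in Pkm cKO libraries and 256 ± 104 CPM in controls (SD, n = 3 each), and the log2 fold change of -1.15 (SE 0.438, 95% interval -2.21 to -0.10) did not pass after adjustment (edgeR adjusted p 0.255). Without Pkm cKO replicate 1 it was -1.65 with an edgeR adjusted p of 0.0417, in a fit that called 3.92% of tested genes. The libraries with more Atp2b1 within each group also had a higher sum of secretory ameloblast markers. Atp2b1 itself hardly differed between Pkm cKO replicates 2 and 3. Amelx made up most of that sum, and Ambn and Acp4 were highest in control replicate 2, unlike Atp2b1. The same order held for the sum of 5 odontoblast markers (Dspp, Dmp1, Phex, Nes and Sp7), which overlapped between the groups. Dspp made up most of the odontoblast sum in controls, and Dmp1, Phex and Sp7 were highest in control replicate 2. That sum was 3829, 1296 and 428 CPM in Pkm cKO replicates 1 to 3, against 5560, 4617 and 2618 CPM in control replicates 1 to 3. The part of either marker list in the difference was not tested.

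Slc24a4, the potassium-dependent sodium-calcium exchanger NCKX4 of maturing enamel, was close to the limit of detection. It had 14, 5 and 21 reads in Pkm cKO replicates 1 to 3, against 5, 3 and 4 reads in control replicates 1 to 3. In CPM these were 0.452, 0.145 and 0.521 in Pkm cKO libraries, against 0.136, 0.0777 and 0.104 in controls, with no overlap between the groups. With 40 reads in all in Pkm cKO libraries and 12 in controls, it did not pass the filter and was not tested. With no filter beyond 1 read its log2 fold change was 1.78 (SE 0.926) and its edgeR adjusted p 0.412. Markers of maturation ameloblasts were measured beside it: the sum of 6, mostly Odam, was 191 to 291 CPM in Pkm cKO libraries and 512 to 554 CPM in controls, and Odam fell (edgeR adjusted p 0.0312).

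Among the genes of bicarbonate and pH, Slc4a4, the sodium-bicarbonate cotransporter NBCe1, had the lowest p of the 8 tested. It stood at 116, 97.1 and 137 CPM in Pkm cKO replicates 1 to 3, against 269, 184 and 195 CPM in control replicates 1 to 3. All Pkm cKO libraries were well below the lowest control. The mean was 117 ± 20.1 CPM in Pkm cKO libraries and 216 ± 46.2 CPM in controls (SD, n = 3 each), lower by 45.9%. The log2 fold change was -0.89 (SE 0.193, 95% interval -1.32 to -0.46), and the edgeR adjusted p of 0.0757 missed the threshold. DESeq2 on the same counts gave -0.88 with an adjusted p of 0.00316, in a fit that called 7.02% of tested genes, and also called Atp2b1 (adjusted p 0.0283). The epithelial marker sum was lower by 28.5%. The maturation ameloblast marker sum, mostly Odam, was lower by 55.5%, and the secretory ameloblast marker sum, mostly Amelx, by 89.3%. The part of any of these in the Slc4a4 difference was not tested.

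Slc4a2, the chloride-bicarbonate exchanger AE2, had 219, 213 and 161 CPM in Pkm cKO libraries, against 303, 247 and 239 CPM in controls. The highest Pkm cKO value lay just under the lowest control. Its mean was lower by 24.8% (log2 fold change -0.41, SE 0.171, 95% interval -0.79 to -0.03), which did not pass after adjustment (edgeR adjusted p 0.255). Exons of Slc4a2 overlap those of Fastk on the opposite strand in the GRCm38 annotation, so its counts may hold reads of that gene.

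Car2, the cytosolic carbonic anhydrase II, was the 1 bicarbonate gene with a fold change above 0. It stood at 69.8, 38.7 and 29.6 CPM in Pkm cKO replicates 1 to 3, against 33.3, 35.5 and 28.9 CPM in control replicates 1 to 3. Only Pkm cKO replicates 1 and 2 exceeded the controls, replicate 1 by far. The log2 fold change was 0.50 (SE 0.288, 95% interval -0.15 to 1.15, edgeR adjusted p 0.409), and without Pkm cKO replicate 1 it was 0.07. Osteoclasts and red cells also make Car2. The osteoclast marker sum was 1483, 403 and 1233 CPM in Pkm cKO replicates 1 to 3, against 355, 144 and 203 CPM in control replicates 1 to 3. Erythroid markers summed to 268 to 355 CPM in Pkm cKO libraries and 575 to 804 CPM in controls. Of the 6 tested, 6 were below 0 in log2 fold change. Every Pkm cKO library lay below the controls in 5 of them, against 12.2% of all tested genes. At an edgeR adjusted p under 0.05, 3 were called, against 0.552% of all tested genes. The part of either cell type in the Car2 values was not tested.

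Cftr, the chloride channel of epithelial membranes, had 21.1, 8.75 and 7.08 CPM in Pkm cKO replicates 1 to 3, against 30.3, 23.6 and 13.3 CPM in control replicates 1 to 3. Its spread within each group resembled that of Atp2b1, with replicate 1 the highest in both groups and the groups overlapping. The mean was 12.3 ± 7.66 CPM in Pkm cKO libraries and 22.4 ± 8.59 CPM in controls (SD, n = 3 each). The log2 fold change of -0.86 (SE 0.463, 95% interval -1.94 to 0.21) did not pass (edgeR adjusted p 0.382). Without Pkm cKO replicate 1 it was -1.50 with an edgeR adjusted p of 0.0469. As for Atp2b1, the order of the libraries within each group was that of the secretory ameloblast and odontoblast marker sums. Ambn, Acp4, Dmp1, Phex and Sp7 of these lists were highest in control replicate 2, unlike Cftr. The part of either list was not tested.

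**Figure D2:**
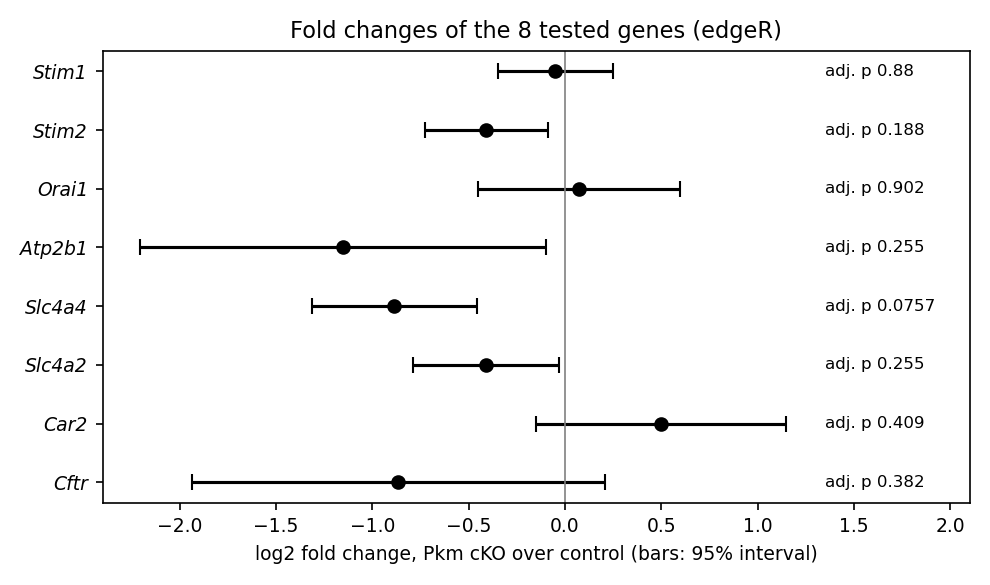
Log2 fold change of Pkm cKO over control for the 8 tested genes, with 95% intervals (bars) and edgeR adjusted p at the right. The intervals of Stim2, Atp2b1, Slc4a4 and Slc4a2 lie below 0, and no adjusted p is under 0.05.

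**Figure D3:**
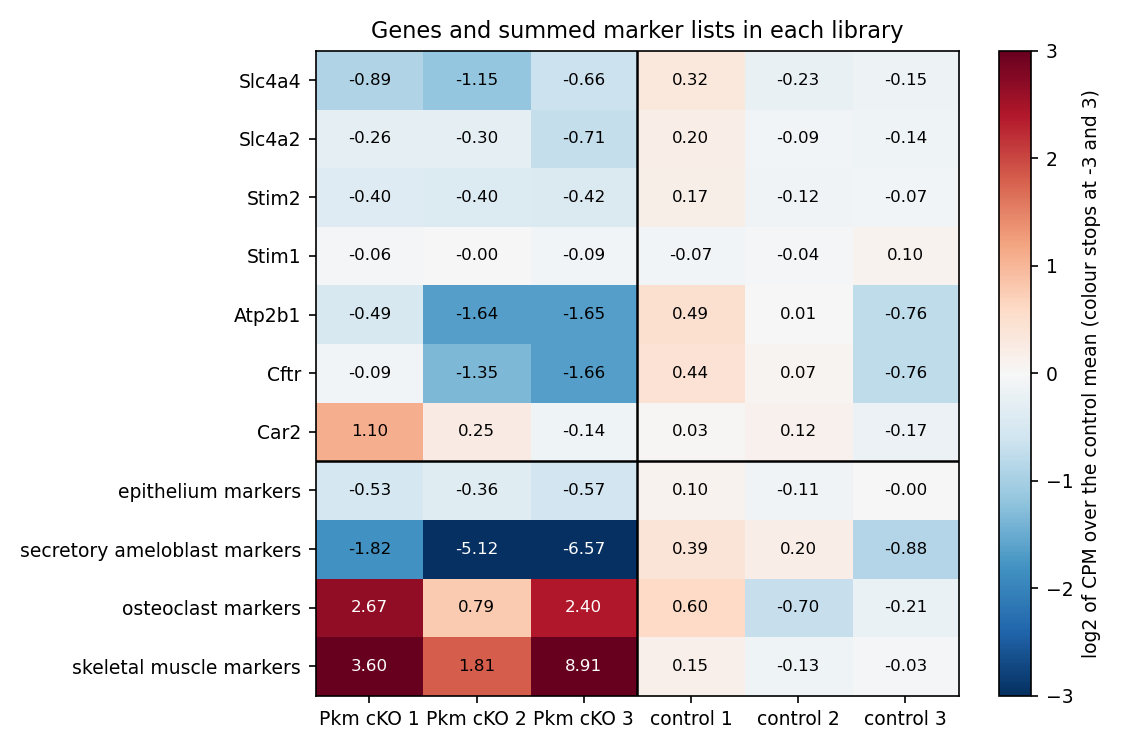
Log2 of the CPM in each library over the control mean, for 7 of the genes (above the line) and for summed marker lists (below it), with Pkm cKO libraries at the left. Atp2b1 and Cftr stand at -1.35 to -1.66 in Pkm cKO replicates 2 and 3, where the secretory ameloblast sum stands at -5.12 and -6.57.

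The genes differed widely in level. Per kilobase of exon (merged over the transcripts of the GENCODE M21 annotation, build GRCm38), the order in Pkm cKO libraries was Slc4a2 (23.8 CPM per kb), Stim1 (19.0), Car2 (19.0), Stim2 (13.8), Slc4a4 (10.8), Atp2b1 (7.57), Orai1 (6.04), Cftr (1.58) and Slc24a4 (0.0825). In controls the order was Slc4a2 (31.6 CPM per kb), Slc4a4 (20.0), Stim1 (19.7), Stim2 (18.4), Atp2b1 (16.8), Car2 (13.4), Orai1 (5.74), Cftr (2.88) and Slc24a4 (0.0234). In the Pkm cKO order, neighbours from Slc4a2 to Stim2 overlapped in their libraries, as did Slc4a4 with Atp2b1 and Atp2b1 with Orai1, while Stim2 and Slc4a4 did not. In the control order, neighbours from Slc4a4 to Car2 overlapped, and Slc4a2 lay above all others in every library. Orai1, Cftr and Slc24a4 were each separate from the next in controls. Slc4a4 stood in the fifth place in Pkm cKO libraries and in the second in controls.

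**Figure D4:**
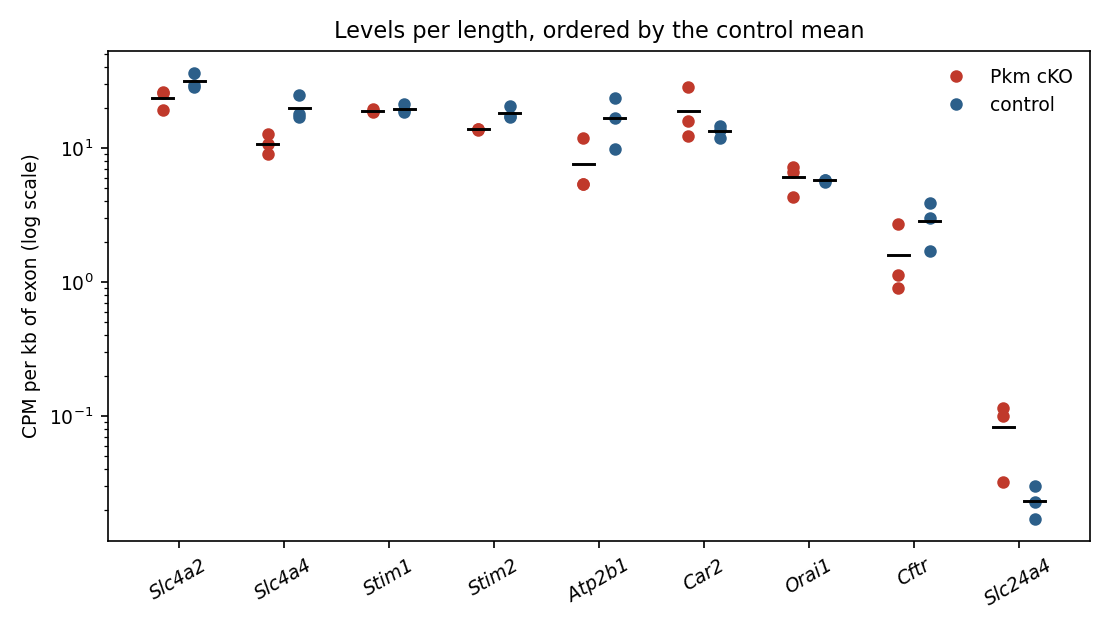
CPM per kilobase of exon on a log scale for the 9 genes, ordered by the control mean, with Pkm cKO libraries in red to the left of controls in blue and lines at the group means. Levels run from 31.6 CPM per kb for Slc4a2 in controls down to 0.0234 for Slc24a4.

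The spread within groups also differed between genes, though each value rests on 3 libraries. The coefficient of variation of the CPM among Pkm cKO libraries was 0.927% for Stim2, 3.16% for Stim1, 16.2% for Slc4a2 and 17.2% for Slc4a4. It was 24.8% for Orai1, 45.8% for Car2, 50.3% for Atp2b1, 53.7% for Slc24a4 and 62.2% for Cftr. Among controls it was 2.63% for Orai1, 6.55% for Stim1, 10.2% for Car2, 11% for Stim2, 13.2% for Slc4a2, 21.4% for Slc4a4, 27.7% for Slc24a4, 38.4% for Cftr and 40.7% for Atp2b1. Some of these values are smaller than counting error alone would give on average. They are those of Stim2 in Pkm cKO libraries (2214 to 2829 reads) and of Orai1 (491 to 516 reads) and Slc24a4 (3 to 5 reads) in controls. In the table's own annotation, 6 of the 9 genes carried the term basolateral plasma membrane (all but Slc24a4, Stim1 and Stim2), which 251 genes of the table hold. The term apical plasma membrane was held by 4 of the 9 (Slc24a4, Slc4a2, Cftr and Atp2b1) and amelogenesis by 3 (Slc24a4, Slc4a2 and Cftr).

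For each tested member but Car2, the 2 genes with the most similar log2 CPM over the 6 libraries were found among 11061 protein-coding genes with a mean of at least 5 CPM. These correlations ran from 0.983 to 0.996. They describe 6 libraries in 2 groups that share depth and tissue makeup, and carry no test. Nearest to Atp2b1 were Dip2a and Rab23 (r = 0.996 and 0.994), and nearest to Cftr were Map1b and Prr16. Those 4 genes also had their highest Pkm cKO value in replicate 1 and their lowest control value in replicate 3. Slc4a4 was followed most closely by Setd7 and Fermt1, and Slc4a2 by Tbc1d9 and Copg1. Nearest to Stim2 were Sec11c and Pcnx4, to Stim1 Psmd8 and Pam, and to Orai1 Pcolce and Bad. None of these 14 genes passed the edgeR threshold.

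Other genes of the same transport steps were counted from 5 lists with 81 genes, of which 79 had a row and 69 were tested. Of these, 1 rose (S100g) and 1 fell (Car13) at an edgeR adjusted p under 0.05, against 0.552% of all tested genes. Below controls without overlap were 12 of the 69 (background 12.2% of all tested genes), and above them 13 (background 11.2% of all tested genes). Their median log2 fold change was 0.00, against 0.01 over all tested genes.

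Car13, a cytosolic carbonic anhydrase like Car2, had 28.6, 24.7 and 27.0 CPM in Pkm cKO libraries, against 63.5, 51.8 and 45.2 CPM in controls. Its groups were far apart, with the mean lower by 50.0% (log2 fold change -1.0, SE 0.179, edgeR adjusted p 0.0496). S100g, the small calcium-binding protein calbindin-D9k, had 51, 37 and 26 reads in Pkm cKO replicates 1 to 3, against 0, 1 and 3 reads in control replicates 1 to 3 (edgeR adjusted p 0.0487). It remained under 2 CPM in every library. Both calls were lost without Pkm cKO replicate 2 (edgeR adjusted p 0.0666 for Car13 and 0.0626 for S100g). They were also lost with any single control left out (0.167 to 0.283 and 0.168 to 0.258), in fits that called 0 of all tested genes. Car13 also lost its call without Pkm cKO replicate 3 (0.0557).

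In calcium entry and stores, 0 of 12 tested genes passed, with 7 below 0 and a median log2 fold change of -0.22. Itpr3, a calcium release channel of the endoplasmic reticulum, had 536, 432 and 310 CPM in Pkm cKO libraries, against 939, 759 and 650 CPM in controls (edgeR adjusted p 0.0973). Atp2a2, the SERCA2 pump that fills that store, had 348, 288 and 328 CPM in Pkm cKO libraries, against 615, 420 and 421 CPM in controls (adjusted p 0.144). These were the 2 genes of the 12 with every Pkm cKO library below the controls, against 12.2% of all tested genes, while 3 (Orai3, Stimate and Atp2a3) had every one above them, against 11.2%. The related pump gene Atp2a3 was low, with 1.74 to 5.21 CPM in Pkm cKO libraries and 0.854 to 1.74 CPM in controls (adjusted p 0.179).

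In calcium export and buffering, 1 of 12 tested genes passed (S100g), 8 were below 0 and the median log2 fold change was -0.32. Slc24a1, an exchanger of the same family as Slc24a4, had 4, 1 and 4 reads in Pkm cKO libraries, against 18, 27 and 21 reads in controls (edgeR adjusted p 0.0997). Slc8a2, a sodium-calcium exchanger, averaged 10.8 ± 4.59 CPM in Pkm cKO libraries and 4.18 ± 0.873 CPM in controls (SD, n = 3 each, edgeR adjusted p 0.108).

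Among the other bicarbonate and anion exchangers, 0 of 13 tested genes passed, and the median log2 fold change was 0.09. Slc26a2, a sulfate transporter, averaged 18.9 ± 4.03 CPM in Pkm cKO libraries and 38.1 ± 15.5 CPM in controls (SD, n = 3 each, edgeR adjusted p 0.129). Within the SLC4 family, Slc4a11 averaged 17.7 ± 4.92 CPM in Pkm cKO libraries and 10.1 ± 3.54 CPM in controls, and Slc4a9 2.46 ± 2.06 CPM in Pkm cKO libraries and 4.83 ± 0.885 CPM in controls (edgeR adjusted p 0.214 and 0.409). The other carbonic anhydrases had a median log2 fold change of 0.19, and of 11 tested genes the 1 that passed was Car13. Car15 (5.12 ± 0.130 CPM in Pkm cKO libraries and 2.35 ± 0.317 CPM in controls) and Car11 (3.72 ± 1.21 CPM in Pkm cKO libraries and 1.52 ± 0.584 CPM in controls) did not pass (edgeR adjusted p 0.116 and 0.176).

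Of the genes of proton and chloride transport, 0 of 21 passed, with a median log2 fold change of 0.03. Slc9a5, a sodium-proton exchanger, averaged 7.61 ± 1.95 CPM in Pkm cKO libraries and 3.09 ± 0.716 CPM in controls (SD, n = 3 each, edgeR adjusted p 0.0983). Clcn4, a chloride-proton exchanger of endosomes, averaged 89.8 ± 7.85 CPM in Pkm cKO libraries and 116 ± 9.10 CPM in controls (adjusted p 0.231). Atp12a, a proton-potassium pump, had 12 or 13 reads in each Pkm cKO library, against 4, 3 and 1 reads in control replicates 1 to 3 (adjusted p 0.158).

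**Figure D5:**
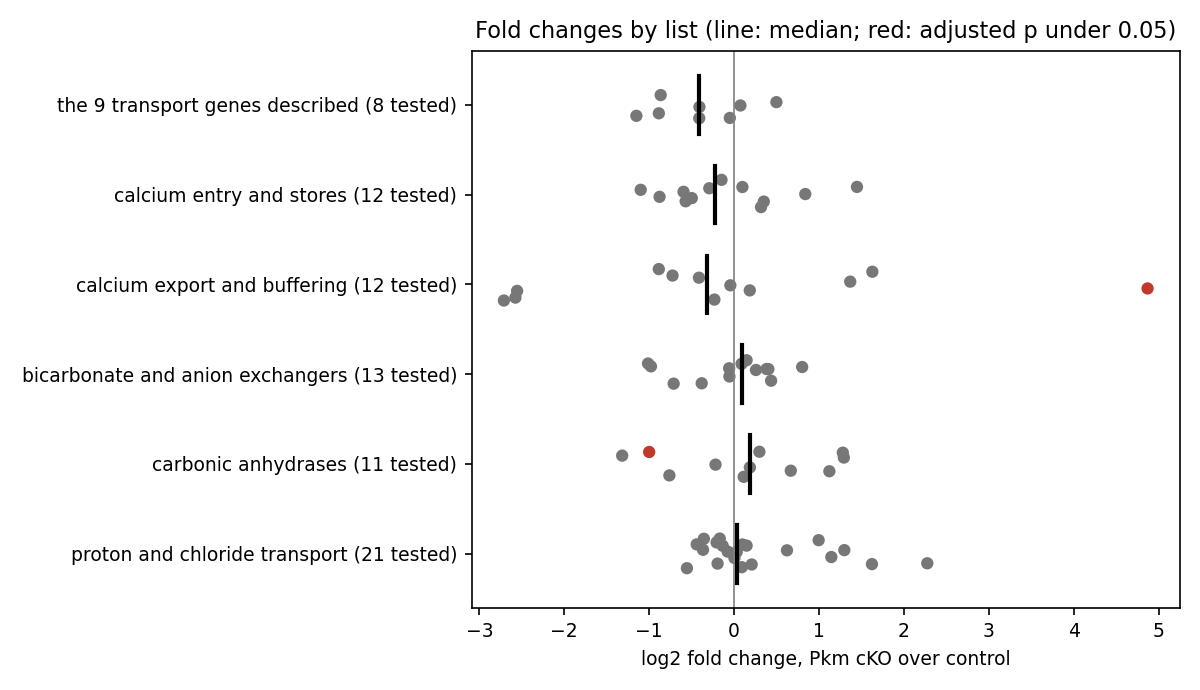
Log2 fold change of Pkm cKO over control for each tested gene of the described members and of the 5 further lists, with a line at each median and red points for an edgeR adjusted p under 0.05. The 2 red points are S100g at 4.87 and Car13 at -1.0.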

How the data were processed

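The authors deposited raw counts per gene, as whole numbers, in 1 table with a column for each of 6 libraries. Per the labels' protocols, 200 ng of total RNA went into each library, and reads were handled with fastp and HISAT2 on build mm39, per the submitters' processing notes. The counting program, strand setting and annotation were not stated. The labels call the samples biological replicates, without saying whether from separate animals, so p-values reflect only the spread among these 6.

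The deposited counts were filtered with edgeR's filterByExpr, scaled by TMM and compared with edgeR's quasi-likelihood test (robust, two-sided, edgeR 4.0.16, R 4.3.3), with Benjamini-Hochberg adjusted p over 15930 genes and a threshold of 0.05. SE is the log2 fold change over the square root of F, and 95% intervals, unadjusted, use its t distribution. The common biological coefficient of variation over all tested genes was 0.300, beside which counting error was small for all members but Slc24a4. Libraries of a group differed by more than sampling noise (chi-square per gene at least 28.2). Alternatives were other scalings and filters, each library left out, a replicate block, DESeq2 1.42.0, limma-voom (limma 3.58.1) and edgeR without robust estimation. The edgeR, replicate block, DESeq2 and limma-voom fits were also run on simulated counts, with an outcome not reported here.

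Members and lists were chosen with earlier results of these data known. Named genes are the members, the genes past the threshold and the 3 with the lowest p in each of 5 transport lists, and the 2 genes most correlated with each tested member (those of Car2 are not reported here). Genes Trpv5 and Slc4a10 had no row under those symbols. Exon lengths, overlaps and start sites come from GRCm38, not the authors' build.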

Additional observations from a re-analysis of the deposited data

How the results depend on the processing

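Over all genes, the count of 88 calls among 15930 tested genes became 1118 (7.02%) with DESeq2. It was 708 with the replicate number as a replicate block, 75 with upper-quartile scaling and 55 with DESeq2 size factors in edgeR. Limma-voom gave 2, and edgeR without robust estimation 2. All these fits tested the same 15930 genes. The count was 518 among 24959 genes with no filter, and 96 among 13728 with at least 1 CPM in 3 samples. With 1 library left out it was 0 to 640, the 640 (3.92% of 16330 genes) without Pkm cKO replicate 1. Without any 1 control it was 0 (1532, 1766 and 2495 genes at an unadjusted p under 0.05). Of the 9 members, the count of 0 became 2 with DESeq2 (Slc4a4 and Atp2b1), 1 with no filter (Slc4a4, adjusted p 0.00612) and 3 with the replicate block (Slc4a4, Atp2b1 and Cftr, adjusted p 0.0214, 0.00909 and 0.0416). With 1 library left out, 0 to 2 passed, the 2 without Pkm cKO replicate 1 (Atp2b1 and Cftr). Of the further transport genes, 2 calls became 10 with DESeq2, 9 with the replicate block, 4 with no filter, 1 with at least 1 CPM in 3 samples, 1 with upper-quartile scaling and 0 with DESeq2 size factors in edgeR, limma-voom or no robust estimation. They were 0 to 7 with 1 library left out. The cause was not tested.

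The labels at hand number the replicates without saying that same-numbered libraries were paired, and the main fit did not pair them. Deviations of same-numbered libraries correlated at 0.235, 0.0150 and 0.215. Pkm cKO replicates 1 and 3 were each nearest to the same-numbered control. The value was -0.278 for Pkm cKO replicate 1 with control replicate 3, and -0.166 for Pkm cKO replicate 3 with control replicate 1. Pkm cKO replicate 2 ran from -0.0394 to 0.0240 over the controls. Whether the numbers mark pairs was not tested. Slc4a2, Slc4a4, Cftr, Car2, Stim2 and Atp2b1 had the same sign in all 14 alternatives, with log2 fold changes of -1.01 to -0.70 for Slc4a4 and -1.65 to -0.83 for Atp2b1. Stim1 ran from -0.090 to 0.00070 and Orai1 from -0.073 to 0.27 with 1 library left out, both crossing 0. Depth limits Slc24a4, with at most 21 reads in a library.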

Other observations

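A few further calcium genes of the lists, chosen after their values were seen, had wide spread. Calb1, the calcium-buffering protein calbindin-D28k, stood at 590, 129 and 47.1 CPM in Pkm cKO replicates 1 to 3, against 2032, 1467 and 1068 CPM in control replicates 1 to 3. The groups did not overlap, and the log2 fold change of -2.58 (SE 1.06) did not pass (edgeR adjusted p 0.316). Slc24a3, a sodium-calcium exchanger of the same family as Slc24a4, stood at 15.7, 2.91 and 4.72 CPM in Pkm cKO libraries, against 71.9, 42.9 and 21.7 CPM in controls (log2 fold change -2.56, SE 0.796, edgeR adjusted p 0.205).

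Trpm7, a channel for magnesium and calcium, had 239, 84.7 and 98.0 CPM in Pkm cKO libraries, against 426, 302 and 177 CPM in controls. Its groups overlapped between Pkm cKO replicate 1 and control replicate 3, as those of Atp2b1 did (edgeR adjusted p 0.338). In all 3 genes the highest Pkm cKO value was in replicate 1 and the lowest control value in replicate 3, which were also the libraries with the most and the least secretory ameloblast RNA of their groups. Pkm cKO replicate 1 also had the highest odontoblast and mesenchymal marker sums of its group, and control replicate 3 the lowest of its group. The part of any of these cell types in the values was not tested.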
